A study of Mus musculus with 8 samples.

Results

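The genes described here make cholesterol and fatty acids, or control how much of them a cell makes. The list held 36 genes, and 32 of them could be measured among the 17097 genes of the table. They comprised 17 of 19 listed enzymes of sterol synthesis, 10 of 11 listed enzymes of fatty acid synthesis, and 5 of 6 listed genes of SREBP control and sterol transport. The expression of Acat2, Pmvk, Srebf1 and Scd2 was not analysed here. Each gene was matched by its symbol to probe sets that carry that symbol alone, and the probe set with the highest mean over the 8 arrays stood for the gene.

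Basal cells of back skin epidermis of CD1 mice were profiled on Affymetrix arrays, with 1 array per mouse. The groups were 3 untreated control mice, 3 mice at day 4 of force-mediated skin expansion, and 2 mice given the phorbol ester TPA (12-O-tetradecanoylphorbol-13-acetate). No dose, duration, age or sex was used here. For each array, 300 cells were sorted as positive for the integrin ITGA6 and negative for CD34, a gate that takes basal cells of the interfollicular epidermis and infundibulum and leaves out bulge cells, and their cDNA was amplified over 25 cycles.

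Cells build cholesterol from acetyl-CoA through mevalonate, isoprenoid units, squalene and a series of changes to the sterol ring. Fatty acids come from the same acetyl-CoA and are then desaturated and elongated. Both routes are driven by SREBP transcription factors, which SCAP carries from the endoplasmic reticulum for activation and INSIG proteins hold back when sterols are plentiful. In skin, keratinocytes use cholesterol, fatty acids and ceramides for the water barrier, and the sebaceous gland makes large amounts of lipid.

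Promoter stretches of 8 members are shown because these genes carry the contrast described below: sterol genes that were lower than in control (Cyp51, Sc5d, Hsd17b7, Msmo1), Hmgcs1, the sterol gene Tm7sf2 that was higher in the arrays labelled TPA, and the fatty acid genes Elovl1 and Fasn. The sequences are from RefSeq on GRCm38.p6, read 5′ to 3′ on the strand of the gene and ending at the base before its start. Elovl1 had 2 promoter windows. Its window with a CCAAT match is shown, and the other window held none. Fdps and Sqle had no promoter window, so neither is shown. Capitals mark CCAAT, written ATTGG where it lies on the opposite strand, and, in Hmgcs1, the letters TCACNCCAC of a sterol regulatory element.
Hmgcs1, chr13:119690211-119690350, plus strand: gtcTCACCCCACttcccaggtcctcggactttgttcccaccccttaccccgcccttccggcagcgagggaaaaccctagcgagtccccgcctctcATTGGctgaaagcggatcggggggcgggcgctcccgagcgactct
Cyp51, chr5:4104698-4104797, minus strand: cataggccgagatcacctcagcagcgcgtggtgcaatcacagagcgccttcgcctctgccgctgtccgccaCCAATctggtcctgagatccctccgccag
Sc5d, chr9:42264301-42264400, minus strand: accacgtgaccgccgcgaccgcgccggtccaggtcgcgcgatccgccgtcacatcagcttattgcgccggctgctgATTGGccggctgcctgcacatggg
Hsd17b7, chr1:169969206-169969305, minus strand: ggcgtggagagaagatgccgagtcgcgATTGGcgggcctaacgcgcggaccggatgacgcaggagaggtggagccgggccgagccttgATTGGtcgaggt
Msmo1, chr8:64733579-64733678, minus strand: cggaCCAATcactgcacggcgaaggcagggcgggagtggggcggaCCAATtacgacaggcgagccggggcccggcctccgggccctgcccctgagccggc
Tm7sf2, chr19:6067851-6067950, minus strand: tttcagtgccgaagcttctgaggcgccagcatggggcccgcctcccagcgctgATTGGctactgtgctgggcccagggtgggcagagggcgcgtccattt
Elovl1, chr4:118427993-118428092, plus strand: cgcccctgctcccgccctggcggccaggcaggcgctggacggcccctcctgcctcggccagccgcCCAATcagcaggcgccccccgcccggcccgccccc
Fasn, chr11:120824548-120824647, minus strand: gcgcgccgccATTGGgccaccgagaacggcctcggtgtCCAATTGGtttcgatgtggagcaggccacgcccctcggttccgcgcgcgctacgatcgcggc

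CCAAT, the letters bound by NF-Y, and GGGCGG, the letters bound by Sp1, often accompany sterol regulatory elements. In windows from 250 bases before to 50 bases after the start, searched on both strands, CCAAT was present in 15 of 16 sterol genes, 5 of 8 fatty acid genes and 4 of 5 genes of SREBP control and transport that had a window. It was present in 41.1% of all 27025 genes with a window. GGGCGG was found in 24 of 29 members and in 38.2% of all genes. TCACNCCAC was found in Hmgcs1 alone among the 29 members, at -137 to -129 relative to its start, and in 1.44% of all genes. The genes counted include Acat2, Pmvk and Srebf1, whose expression was not analysed here. These matches describe letters in a window and are not measured binding sites. The Fasn stretch holds CCAAT and ATTGG overlapping each other.

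The array medians lay between 7.08 and 7.14 on the log2 scale. Basal keratinocyte markers were bright on every array, and of 7 measured, 1 was called higher (Krt15, 1.23 in expanded and 2.38 in TPA) and 2 lower (Itga6, -0.47 and -0.69; Itgb4, -0.38 and -0.32) in each comparison with control. Over all genes, 5.69% were called higher and 5.78% lower in expanded, and 10.2% and 10.6% in TPA. Itga6 encodes the integrin of the sort. The bulge marker Cd34 lay under the background limit on every array. That limit, between 6.37 and 6.55, was set per array at the 95th percentile of 79 genes for smell receptors (olfactory, vomeronasal or trace-amine). One check went against a label. Genes known to be induced by phorbol ester in epidermis were lower in the arrays labelled TPA than in those labelled control in 9 of 9 measured cases, among them Odc1 (fell by 2.35 on the log2 scale) and Krt16 (fell by 0.89). All 9 were called lower there, and 56.0% of all genes had a lower mean in TPA than in control. The 9 differences in TPA ran from -5.60 to -0.69, and the lower end was also the lowest over all genes. These genes were also lower in expanded than in control in 9 of 9 cases, of which 6 were called. There, 48.4% of all genes had a lower mean. The 9 differences in expanded ran from -4.19 to -0.09, and the lower end was again the lowest over all genes. For each of these 9 genes, the control arrays lay above every expanded and TPA array. All directions below follow the labels. If the labels control and TPA were exchanged, every TPA-control difference would change sign, and the expanded-control and expanded-TPA comparisons would trade places.

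In expanded skin, the sterol enzymes Mvd, Fdps, Sqle, Cyp51, Msmo1, Hsd17b7 and Sc5d fell, and Elovl1 was the fatty acid enzyme that fell. In expanded minus control, 7 of 17 sterol enzymes fell at a limma adjusted p under 0.05 (5.78% of all genes fell), and none rose (5.69% of all genes rose); at an unadjusted p under 0.05, 10 fell and 1 rose. Their median difference was -0.45 on the log2 scale, against 0.01 over all genes. Of the 10 fatty acid enzymes only Elovl1 fell and none rose (3 and 1 at an unadjusted p under 0.05), with a median of -0.00. In the arrays labelled TPA, 7 of 17 sterol enzymes again fell (10.6% of all genes) and Tm7sf2 rose (10.2% of all genes), with a median of -0.31. The fatty acid median there was 0.00, and Elovl1 was again the only call. The difference between sterol and fatty acid enzymes as groups was not tested. These comparisons share the control arrays, so the similarity of their lists was not counted as a result. RNA was pooled over the sorted cells, so fewer cells expressing a gene and less RNA per cell cannot be told apart.

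**Figure D1:**
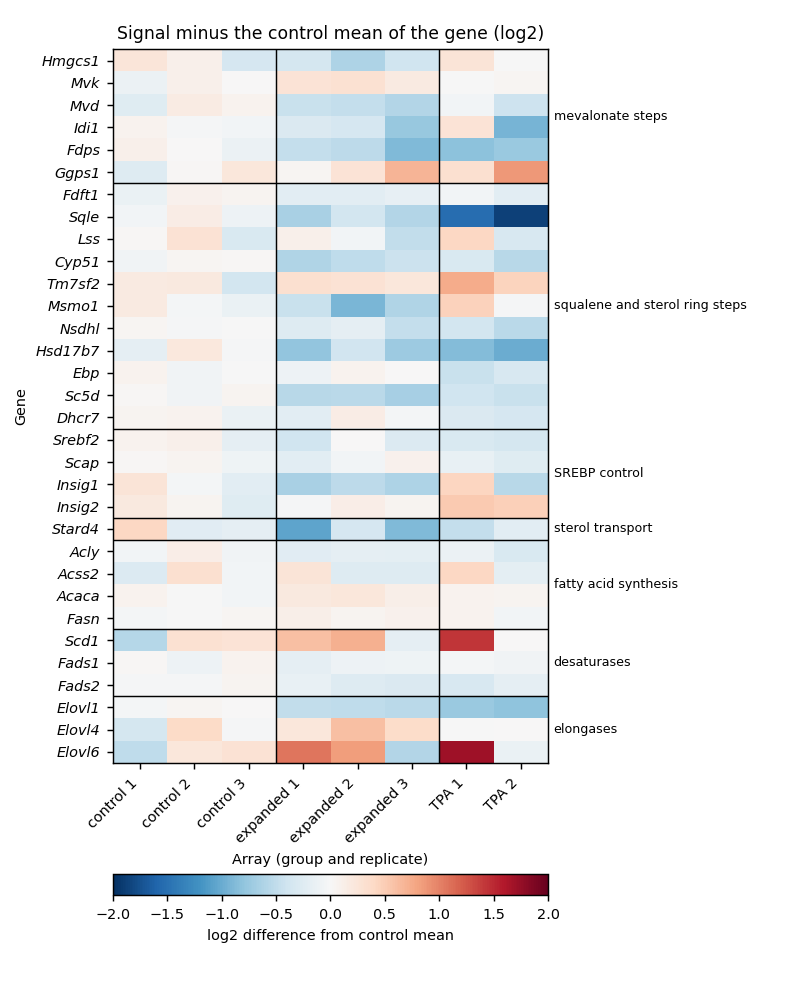
Each cell gives a gene's log2 signal on 1 array minus the mean of its 3 control arrays, for the 32 measured genes (rows, grouped by role) on the 8 arrays (columns), with blue below and red above the control mean. Blue runs through most sterol rows in the expanded arrays, while among the fatty acid rows Elovl1 is blue in both groups, Scd1, Elovl4, Elovl6 and Acss2 vary from array to array, and Fasn is near white.

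The mevalonate steps make the isoprenoid units. Hmgcs1, the synthase that makes HMG-CoA, read 8.53, 8.39 and 7.96 in control, 7.95, 7.68 and 7.89 in expanded and 8.55 and 8.29 in TPA on the log2 scale. The expanded arrays lay just under all control arrays, and the TPA arrays lay within or above the control range. Its difference was -0.45 ± 0.15 (SE, 3 against 3 arrays; adjusted p = 0.101, limma) in expanded and 0.12 ± 0.17 (adjusted p = 0.687, limma) in TPA. Mvk, which phosphorylates mevalonate, went the other way in expanded without passing the threshold, at 0.25 ± 0.08 (adjusted p = 0.0708, limma).

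Mvd, the decarboxylase that closes the mevalonate steps, read 7.86, 8.26 and 8.17 in control, 7.65, 7.61 and 7.51 in expanded and 8.05 and 7.68 in TPA. It fell by 0.51 ± 0.13 in expanded (adjusted p = 0.0382, limma), with no overlap of the groups. TPA replicate 1 lay within the control range and replicate 2 below it, and the difference was -0.23 (adjusted p = 0.323, limma). A second Mvd probe set, close to background, gave -0.45 (adjusted p = 0.131) in expanded and -0.82 (adjusted p = 0.0135) in TPA when each probe set was tested by limma. The expanded call ended when control 2, control 3 or any 1 expanded array was dropped, where the adjusted p reached 0.13 by limma.

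Idi1, which isomerises isopentenyl diphosphate, read 9.85, 9.75 and 9.72 in control, 9.49, 9.43 and 9.01 in expanded and 10.05 and 8.84 in TPA. The expanded arrays were all below control, and the pair of TPA arrays lay on either side of every other array, 1.21 apart. Neither difference passed the threshold (-0.46 ± 0.27, adjusted p = 0.366 in expanded; -0.33 ± 0.30, adjusted p = 0.521 in TPA; limma).

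Fdps, which joins isoprenoid units into farnesyl diphosphate, was lower in both. It read 9.78, 9.68 and 9.57 in control, 9.20, 9.15 and 8.80 in expanded and 8.86 and 8.94 in TPA. No expanded or TPA array reached the lowest control array. Fdps fell by 0.63 ± 0.12 in expanded (adjusted p = 0.00946) and by 0.78 ± 0.13 in TPA (adjusted p = 0.00306) by limma, leaving 0.648 and 0.583 times the control signal. Ggps1 takes farnesyl diphosphate to the longer geranylgeranyl chain used on proteins and stands on a side branch. It was not lower: the difference was 0.33 ± 0.20 (adjusted p = 0.4) in expanded and 0.59 ± 0.23 (adjusted p = 0.107) in TPA by limma.

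The next enzymes commit farnesyl diphosphate to sterols and close the ring. Fdft1, squalene synthase, was -0.20 ± 0.08 from control in expanded (adjusted p = 0.188, limma) and -0.13 ± 0.09 in TPA (adjusted p = 0.381, limma). Sqle, squalene epoxidase, a flux-controlling enzyme of the pathway, had the largest change of any member. It read 9.86, 10.05 and 9.81 in control, 9.25, 9.53 and 9.33 in expanded and 8.39 and 8.04 in TPA. The 3 groups did not overlap, with control highest and TPA lowest.

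Sqle fell by 0.53 ± 0.12 in expanded (adjusted p = 0.0214) and by 1.69 ± 0.13 in TPA (adjusted p = 5.53e-05) by limma, leaving 0.690 and 0.310 times the control signal. Leaving out control 1, control 2, expanded 1 or expanded 3 ended the expanded call, with an adjusted p of up to 0.0794 by limma. Lss, which closes the squalene epoxide ring, was too close to background to order: it was above the limit on 1 of 3 control, 2 of 3 expanded and 1 of 2 TPA arrays.

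Cyp51, the lanosterol demethylase, was among the brighter sterol enzymes, at 10.48, 10.61 and 10.59 in control, 9.97, 10.05 and 10.12 in expanded and 10.26 and 10.01 in TPA. All 5 other arrays lay under the control arrays. It fell by 0.52 ± 0.09 in expanded (adjusted p = 0.00632) and by 0.43 ± 0.10 in TPA (adjusted p = 0.0152) by limma. The TPA call was lost without control replicate 2 or TPA replicate 2 (adjusted p up to 0.101, limma). Both dimmer Cyp51 probe sets had negative differences in both comparisons, none past the threshold (expanded adjusted p = 0.0658 and 0.0936, limma).

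Tm7sf2, a sterol reductase of the ring steps, was the 1 sterol enzyme called higher, in TPA; without regard to the threshold, 3 of 17 differences were above 0 in expanded and 6 of 17 in TPA. It read 8.45, 8.46 and 7.90 in control, 8.59, 8.56 and 8.50 in expanded and 9.02 and 8.72 in TPA. The lowest control array was far from the other controls, and both TPA arrays lay above every control and expanded array. It rose by 0.60 ± 0.17 in TPA (adjusted p = 0.0395, limma), a call lost without TPA replicate 1 or any 1 expanded array, with array weights (adjusted p = 0.0649, limma) and in a fit of control and TPA alone (adjusted p = 0.0869, limma), and its expanded difference was 0.28 ± 0.15 (adjusted p = 0.335, limma).

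The enzymes that remove the methyl groups at carbon 4 are Msmo1, Nsdhl and Hsd17b7. Hsd17b7 read 8.96, 9.35 and 9.12 in control, 8.35, 8.76 and 8.42 in expanded and 8.27 and 8.15 in TPA, with no array of either group reaching control. It fell by 0.64 ± 0.13 in expanded (adjusted p = 0.0162) and by 0.93 ± 0.15 in TPA (adjusted p = 0.00234) by limma. A second probe set gave -0.57 (adjusted p = 0.0214) and -1.06 (adjusted p = 0.000994) by limma. The expanded call ended when control 2, control 3, expanded 1 or expanded 3 was dropped (adjusted p up to 0.0586, limma).

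Nsdhl, the dehydrogenase of these steps, read 9.69, 9.64 and 9.64 in control, 9.40, 9.48 and 9.17 in expanded and 9.29 and 9.12 in TPA. All expanded and TPA arrays were below control. It fell by 0.45 ± 0.10 in TPA (adjusted p = 0.0154, limma; lost without TPA replicate 2, where it was -0.36), and its expanded difference of -0.31 ± 0.09 did not pass (adjusted p = 0.0721, limma).

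Msmo1, the oxidase of these steps, was lower in expanded than in both other groups. It read 8.91, 8.70 and 8.60 in control, 8.29, 7.82 and 8.13 in expanded and 9.20 and 8.71 in TPA. The expanded arrays did not overlap control or TPA, and TPA overlapped control. It fell by 0.66 ± 0.16 in expanded (adjusted p = 0.0327, limma) and differed from control by 0.22 ± 0.18 in TPA (adjusted p = 0.466, limma). Dropping any 1 control array, or expanded 2 or 3, ended the expanded call (adjusted p up to 0.107, limma). Its dimmer probe set disagreed on TPA, at -0.50 ± 0.15 (adjusted p = 0.0474, limma), and gave -0.46 ± 0.13 in expanded (adjusted p = 0.0668, limma).

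The last ring steps are those of Ebp, Sc5d and Dhcr7. Ebp, the isomerase that moves the ring double bond, was -0.01 ± 0.08 from control in expanded and fell by 0.38 ± 0.09 in TPA (adjusted p = 0.0152, limma; lost without TPA replicate 1, where it was -0.32). It read 10.40, 10.26 and 10.32 in control, 10.22, 10.40 and 10.33 in expanded and 9.88 and 10.01 in TPA, so that only TPA stood apart. Dhcr7, the reductase that finishes cholesterol, had differences of -0.03 ± 0.10 in expanded and -0.31 ± 0.12 in TPA (adjusted p = 0.102, limma).

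Sc5d, the desaturase before Dhcr7, read 8.46, 8.36 and 8.48 in control, 7.87, 7.89 and 7.76 in expanded and 8.04 and 7.99 in TPA. The 3 groups did not overlap, with expanded lowest. It fell by 0.59 ± 0.07 in expanded (adjusted p = 0.00122) and by 0.42 ± 0.08 in TPA (adjusted p = 0.00633) by limma. Its other probe sets both went the other way in TPA, at 0.52 and 0.86. In expanded they gave 0.27 and -0.41, so that 1 of them shared the direction. None of these differences from control passed the threshold. The probe set at -0.41, which was close to background, differed between expanded and TPA by -1.28 ± 0.27 (adjusted p = 0.0307, limma). With the mean of the 3 probe sets, Sc5d was -0.24 in expanded (adjusted p = 0.358) and 0.32 in TPA (adjusted p = 0.202) by limma.

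**Figure D2:**
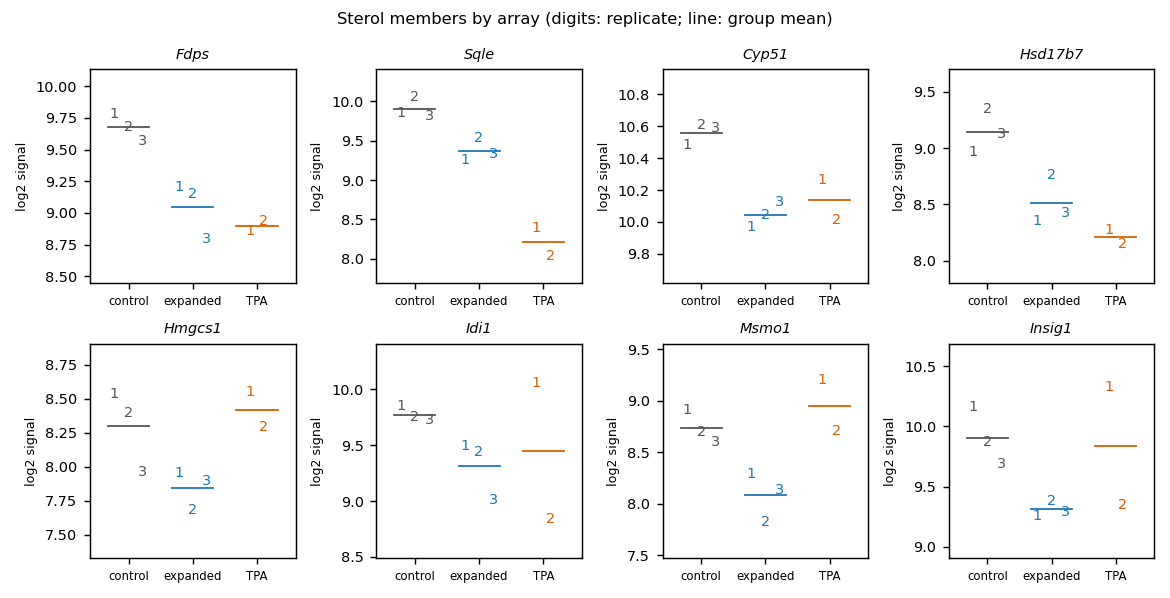
Log2 signal (vertical axes) of 8 members by group, where each digit is 1 array placed at its value and numbered by replicate, and each line is the group mean. Fdps, Sqle, Cyp51 and Hsd17b7 are lower than control in both groups, Hmgcs1 and Msmo1 have their lowest signals in the expanded arrays, and the pair of TPA arrays is far apart for Idi1 and Insig1.

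Among all 17 sterol enzymes, 11 had every expanded array below every control array and 2 had the reverse. Among the 10 fatty acid enzymes, 3 were below in this way (Acly, Fads2 and Elovl1) and 2 above (Acaca and Fasn). Over the table, 2485 genes were below and 2636 above without overlap. Control had the highest of the 3 group means in 11 of 17 sterol enzymes and in 39.3% of all genes. TPA had the highest in 5 of 17 and in 30.7% of all genes, which is the value that would stand for control if the labels were exchanged. Expanded had the lowest in 8 of 17 and in 19.8% of all genes. When each array was left out in turn, the count of sterol enzymes called lower in expanded ran from 3 (without control replicate 2) to 7. In TPA it ran from 5 to 7, and the median moved to -0.05 without TPA replicate 2.

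Some markers of other cell types and states also differed in these comparisons. Over all genes, 5.69% were called higher and 5.78% lower in expanded, and 10.2% and 10.6% in TPA. The bulge and fibroblast counts below rest on 1 gene in expanded and 2 in TPA. Of 8 suprabasal markers, 4 rose in expanded and in TPA, among them Krt1 (1.73 and 1.40) and Krt10 (1.47 and 1.46). Differences in this list ran from -0.33 to 5.72 in expanded and from -0.48 to 5.97 in TPA. Both upper ends were also the highest over all genes. The summed linear signal of the suprabasal markers was 10953 to 15321 in control, 28389 to 30604 in expanded and 27743 to 29929 in TPA. Lor and Flg, markers of the outermost living layer, were under the background limit on all arrays. The basal list of 7 markers summed to 44146 to 45912, 41905 to 42074 and 44264 to 45658. Of 6 bulge markers measured, 1 rose in expanded (Postn, 1.31) and 2 in TPA (Postn, 1.90, and Krt75), with Cd34, Lgr5 and Lhx2 under the limit on all arrays. The bulge list summed to 1623 to 1828 in control, 2398 to 3674 in expanded and 4172 to 4175 in TPA. Of 7 fibroblast markers, 1 rose in expanded (Thy1, 1.23) and 2 in TPA (Thy1, 1.33, and Dcn, 1.69), with sums of 795 to 1095, 1547 to 1569 and 1836 to 1878 and with Col1a2, Lum and Pdgfra under the limit on all arrays. Of 6 endothelial markers 0 were called by limma, and 0 had an unadjusted p under 0.05. That list summed to 1785 on control replicate 1 against 474 and 507 on the other controls, 537 to 889 in expanded and 417 to 494 in TPA. The part of these cell types in the sterol differences was not tested.

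Of the 5 measured genes of SREBP control and sterol transport, 0 were called in expanded (5.69% of all genes rose and 5.78% fell). At an unadjusted p under 0.05 by limma, 2 of them fell there. In TPA 1 rose and 0 fell (10.2% and 10.6% of all genes). In each comparison, 80% of their differences were below 0, against 48.4% of all genes in expanded and 56.0% in TPA. Srebf2, the factor that drives sterol genes, differed by -0.22 ± 0.12 in expanded (adjusted p = 0.325, limma) and -0.33 ± 0.13 in TPA (adjusted p = 0.128, limma). Its dimmer probe set gave -0.53 ± 0.16 in TPA (adjusted p = 0.0494, limma). Scap, its escort, differed by -0.06 ± 0.09 and -0.19 ± 0.10, with no call.

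Insig1 encodes a retention factor that is itself an SREBP target. It read 10.16, 9.87 and 9.69 in control, 9.26, 9.38 and 9.29 in expanded and 10.33 and 9.35 in TPA. The expanded arrays were tightly grouped below all controls, and the TPA arrays were 0.98 apart and straddled the control range. The differences were -0.59 ± 0.23 (adjusted p = 0.144) in expanded and -0.07 ± 0.25 (adjusted p = 0.896) in TPA by limma. Fitted on the control and expanded arrays alone, the expanded difference had an adjusted p of 0.0169 by limma.

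Insig2 encodes the related retention factor, whose gene is not driven by SREBP in the same way. It read 9.46, 9.32 and 9.03 in control, 9.24, 9.41 and 9.33 in expanded and 9.80 and 9.75 in TPA. Expanded lay within the control range and TPA above every other array. Insig2 rose by 0.50 ± 0.13 in TPA (adjusted p = 0.0217, limma), a call lost without either TPA array (adjusted p up to 0.1, limma) and in a fit of control and TPA alone (adjusted p = 0.0504, limma). Of its other probe sets, 1 rose in TPA (0.40, adjusted p = 0.0483, limma) and the other did not (-0.03).

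Stard4, a carrier of cholesterol between membranes and an SREBP target, had the largest expanded-control difference among the members, though not past the threshold; against TPA its difference was -0.41, and Sqle had the largest there, at 1.16. It read 8.52, 7.88 and 7.92 in control, 7.06, 7.78 and 7.22 in expanded and 7.64 and 7.89 in TPA. The expanded arrays were all lower than control but spread over a wide range. The difference was -0.75 ± 0.22 (adjusted p = 0.0631, limma), and in TPA it was -0.34 ± 0.25 (adjusted p = 0.4, limma). With the mean of its probe sets, the expanded difference was -0.59 and passed the threshold (adjusted p = 0.0293, limma). It also passed with only genes above the limit on 2 arrays, with a trended and robust eBayes, and without expanded replicate 2 (adjusted p = 0.0497, 0.0432 and 0.024, limma). In the other fits it did not pass.

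The enzymes that feed and build the fatty acid chain showed small differences. Fasn, fatty acid synthase, read 9.56, 9.58 and 9.64 in control, 9.70, 9.64 and 9.68 in expanded and 9.67 and 9.54 in TPA. All 8 arrays lay between 9.54 and 9.70. The expanded arrays lay just above all control arrays, and TPA overlapped both other groups. The differences were 0.08 ± 0.07 in expanded and 0.01 ± 0.08 in TPA (adjusted p = 0.56 and 0.944, limma). Acaca, the carboxylase that makes malonyl-CoA, differed by 0.18 ± 0.07 in expanded (adjusted p = 0.155, limma) and by 0.06 ± 0.08 in TPA. Acly, which releases acetyl-CoA from citrate and so feeds both routes, differed by -0.21 ± 0.08 and -0.21 ± 0.09 (adjusted p = 0.168 and 0.156, limma). Acss2, which makes acetyl-CoA from acetate, differed by -0.09 ± 0.21 and 0.11 ± 0.24.

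Elovl1 elongates very long saturated chains, which end in barrier ceramides. By group mean it was the brightest member in control and expanded, and Scd1 was brighter in TPA (11.60 against 11.28). Elovl1 read 12.01, 12.09 and 12.05 in control, 11.56, 11.54 and 11.51 in expanded and 11.31 and 11.24 in TPA. The 3 groups were separate and the arrays of a group were within 0.077 of each other. It fell by 0.51 ± 0.06 in expanded (adjusted p = 0.00136) and by 0.77 ± 0.07 in TPA (adjusted p = 0.000126) by limma. Both calls of this probe set held with any 1 array left out. A second probe set, not refitted in that way, fell likewise, by 0.43 (adjusted p = 0.0156) and 0.90 (adjusted p = 0.000352) by limma.

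Elovl4, which makes still longer chains for acylceramides, differed by 0.39 ± 0.18 in expanded (adjusted p = 0.219, limma) and by -0.00 ± 0.20 in TPA. Fads2, a desaturase of polyunsaturated chains, was dim, at 6.97, 6.97 and 7.05 in control, 6.84, 6.74 and 6.71 in expanded and 6.68 and 6.82 in TPA. Its arrays did not overlap control in either group, but the differences of -0.23 ± 0.07 and -0.25 ± 0.08 did not pass (adjusted p = 0.0837 and 0.0667, limma). Fads1, the other such desaturase, was under the background limit on all 8 arrays.

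Scd1, the desaturase that makes monounsaturated fatty acids, and Elovl6, which takes palmitate to stearate, differed more between mice of a group than between groups. Scd1 read 10.31, 11.19 and 11.16 in control, 11.49, 11.59 and 10.70 in expanded and 12.32 and 10.89 in TPA. Elovl6 read 9.03, 9.76 and 9.82 in control, 10.60, 10.37 and 8.95 in expanded and 11.23 and 9.41 in TPA. For both genes, control replicate 1, expanded replicate 3 and TPA replicate 2 were low in their groups and TPA replicate 1 was the highest of the 8 arrays. The differences for Scd1 were 0.38 ± 0.40 and 0.72 ± 0.45, and those for Elovl6 were 0.44 ± 0.54 and 0.78 ± 0.60, in expanded and TPA, with adjusted p from 0.325 to 0.723 by limma.

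Some sebaceous gland markers had the same low and high arrays. Far2, an enzyme of wax synthesis and an example of these, read 9.30, 10.20 and 10.31 in control, 10.48, 10.50 and 8.32 in expanded and 11.22 and 8.40 in TPA. Of the list's 14 markers, 10 were measured: 9 of 10 were higher in TPA replicate 1 than in replicate 2 (median 1.17), 10 of 10 were lower in expanded replicate 3 than in replicate 1, and 10 of 10 were lower in control replicate 1 than in replicate 2. In Krt79, Pparg, Plin5 and Acsbg1 the highest array was another than TPA replicate 1. Acsbg1 was the list's only call, lower in expanded (-1.69) and in TPA (-1.04). The list's summed linear signal was 4051 to 6648 in control, 2402.5 to 5564 in expanded and 4893 to 7579 in TPA, and Elovl3 was under the background limit on all arrays. Their part in the Scd1 and Elovl6 values was not tested.

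**Figure D3:**
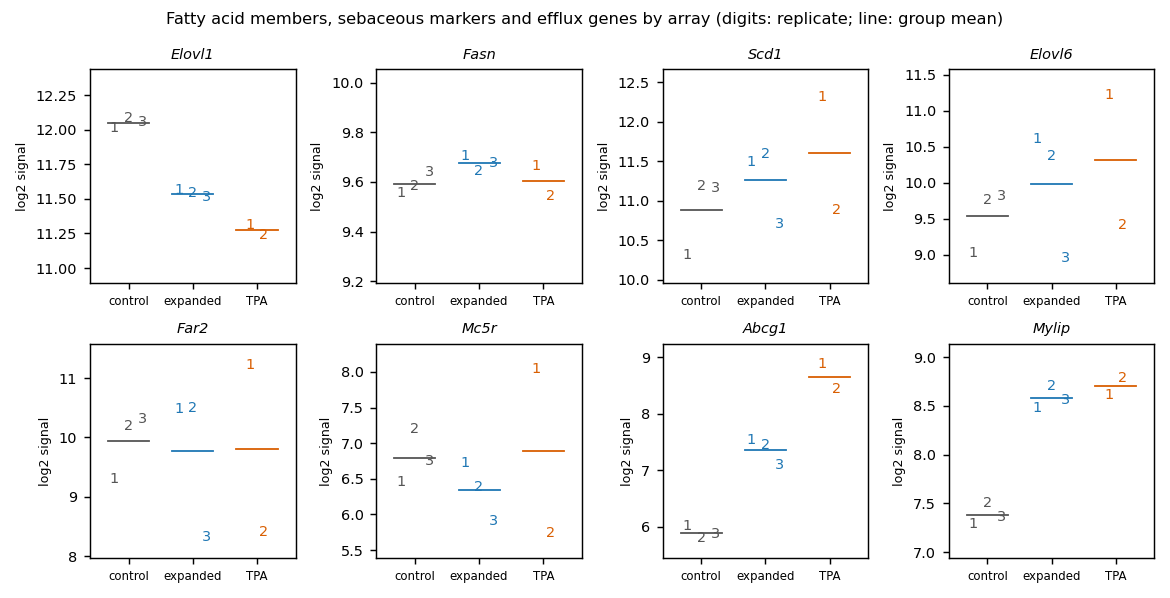
Log2 signal (vertical axes) by group for 4 fatty acid members (top row), the sebaceous markers Far2 and Mc5r and the efflux genes Abcg1 and Mylip (bottom row), with 1 digit per array giving its replicate and a line at each group mean. Elovl1 separates all 3 groups. For Fasn the expanded arrays lie just above control and the TPA arrays overlap both. Scd1 and Elovl6 share with Far2 a low control 1, expanded 3 and TPA 2 and a high TPA 1.

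The pair of TPA mice differed in sterol genes too. TPA replicate 1 was higher than replicate 2 in 13 of 17 sterol enzymes (median 0.18), 8 of 10 fatty acid enzymes and 25 of all 32 members, against 46.6% of all genes. The gap was 1.21 for Idi1, 0.98 for Insig1 and 1.82 for Elovl6. Such a skew was not particular to TPA. Control replicate 2 was higher than replicate 3 in 13 of 17 sterol enzymes (median 0.09) and 23 of 32 members. Expanded replicate 2 was higher than replicate 3 in 12 of 17 sterol enzymes (median 0.12), 8 of 10 fatty acid enzymes and 24 of 32 members. In the other control and expanded pairs, the first replicate was higher in 12 to 17 of 32 members.

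Expanded and TPA skin were also set against each other directly. Over all genes, 3.16% were higher and 2.81% lower in expanded. Among the members, Sqle (1.16 ± 0.13, adjusted p = 0.00229) and Ebp (0.38 ± 0.09, adjusted p = 0.0435) were higher in expanded by limma. Msmo1 was lower there, by -0.87 ± 0.18 (adjusted p = 0.0261, limma). All 3 are sterol enzymes, and the sterol median was -0.09. By limma, 0 of 10 fatty acid enzymes were called, and 1 had an unadjusted p under 0.05. Elovl1 was 0.26 ± 0.07 higher in expanded (adjusted p = 0.0722, limma), without overlap. Its second probe set passed the threshold, at 0.47 ± 0.10 (adjusted p = 0.0293, limma). Dropping any of the 8 arrays ended the Ebp call (adjusted p up to 0.206, limma), and dropping expanded 2, expanded 3 or TPA 1 ended the Msmo1 call (adjusted p up to 0.14, limma), as did a fit of these groups alone (adjusted p = 0.0796, limma). The other Msmo1 probe set gave 0.04 ± 0.15 (adjusted p = 0.935, limma).

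**Figure D4:**
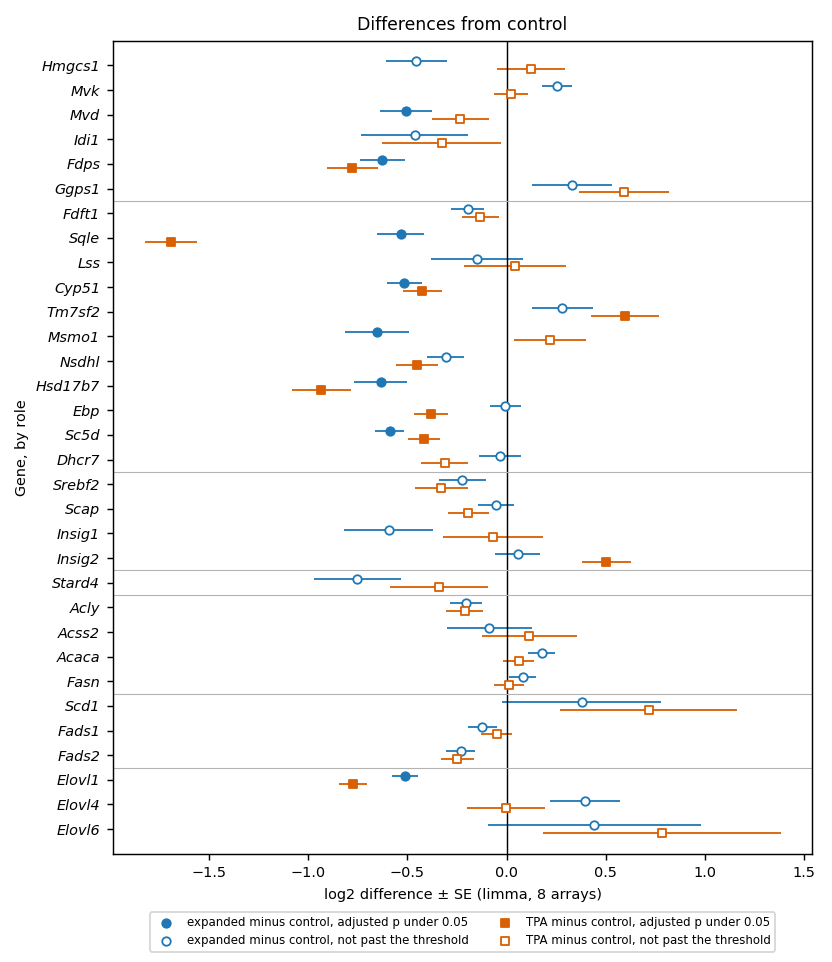
Log2 difference from control with its standard error (horizontal axis) for each of the 32 members (rows, grouped by role), with circles for expanded and squares for TPA, filled where the limma adjusted p over all genes was under 0.05. Filled symbols lie in the sterol block and at Elovl1 on the negative side, and Tm7sf2 and Insig2 are the filled symbols on the positive side.

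Genes that take up, move or export sterols were read from separate lists. Beside their counts stand the shares of all genes called, 5.69% higher and 5.78% lower in expanded and 10.2% and 10.6% in TPA. Of 15 measured genes of other sterol synthesis and uptake, 1 rose and 2 fell in expanded and likewise in TPA. Npc2 and Npc1, which release cholesterol from lysosomes, fell by 0.33 ± 0.07 and 0.43 ± 0.11 in expanded (adjusted p = 0.0123 and 0.0377, limma). Scarb1, a receptor for lipoprotein cholesterol, fell by 1.09 ± 0.14 in TPA (adjusted p = 0.000886, limma) and was near control in expanded (-0.12). Acat1, a mitochondrial thiolase, rose by 0.70 ± 0.08 and 0.86 ± 0.09 (adjusted p = 0.000861 and 0.000218, limma).

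Genes of sterol export and of the sterol sensor LXR moved in both directions. Of 12 measured, 3 rose and 1 fell in expanded, and 5 rose and 1 fell in TPA. Abcg1, a sterol exporter, read 6.02, 5.79 and 5.87 in control, 7.53, 7.44 and 7.10 in expanded and 8.88 and 8.43 in TPA. The 3 groups did not overlap and control was under the background limit, so Abcg1 was at least 1.79-fold higher in expanded and at least 4.41-fold higher in TPA (adjusted p = 0.000526 and 1.42e-05, limma).

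Mylip, a ligase that removes lipoprotein receptors and is an LXR target, rose by 1.20 ± 0.09 and 1.31 ± 0.10 (adjusted p = 0.000138 and 5.92e-05, limma). Apoe, a lipid carrier that accepts exported cholesterol, rose by 0.66 ± 0.13 and 1.14 ± 0.15 (adjusted p = 0.0132 and 0.000771, limma). Cyp7b1, which hydroxylates oxysterols, fell by 0.95 ± 0.21 in expanded (adjusted p = 0.0221, limma) and was at least 2.82-fold lower in TPA, where it was under the limit.

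Other genes of fatty acid synthesis went in both directions. Of 26 measured, 2 rose and 4 fell in expanded (5.69% and 5.78% of all genes). In TPA, 4 rose and 7 fell (10.2% and 10.6% of all genes). Fads3, a desaturase related to Fads1 and Fads2, read 9.45, 9.32 and 9.33 in control, 7.47, 6.92 and 7.24 in expanded and 6.47 and 6.17 in TPA. It fell by 2.15 ± 0.14 in expanded (adjusted p = 6.31e-05, limma) and was at least 7.41-fold lower in TPA, where it was under the limit. Acsl3, which activates fatty acids, fell by 0.73 ± 0.13 in expanded (adjusted p = 0.00916, limma), while Acsl5 rose by 0.50 ± 0.09 and the elongase Elovl7 by 0.66 ± 0.09 (adjusted p = 0.00872 and 0.002, limma). Hacd1, a dehydratase of chain elongation, and Fabp5, the epidermal fatty acid carrier, fell by 1.73 ± 0.12 and 0.80 ± 0.09 in TPA (adjusted p = 3.06e-05 and 0.000458, limma).

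Genes of epidermal barrier lipids, the destination of Elovl1 products, were mostly called lower where called. Of 20 measured, 7 fell and none rose in expanded (1 rose at an unadjusted p under 0.05), and 8 fell and 1 rose in TPA. Over all genes, 5.78% fell and 5.69% rose in expanded, and 10.6% fell and 10.2% rose in TPA. The medians of the list were -0.31 and -0.30 (0.01 and -0.03 over all genes). Sptlc2, a subunit of the enzyme that starts ceramide synthesis, fell by 0.66 ± 0.08 and 0.96 ± 0.09 (adjusted p = 0.00159 and 0.000183, limma). Ugcg, which makes glucosylceramide, fell by 0.88 ± 0.11 in expanded (adjusted p = 0.00154, limma). Degs2, which makes phytoceramides, fell by 1.30 ± 0.17 in expanded (adjusted p = 0.00185, limma). Sult2b1, which makes cholesterol sulfate, fell by 1.10 ± 0.15 in expanded and differed by -2.39 ± 0.17 in TPA (adjusted p = 0.00222 and 3.27e-05, limma).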

How the data were processed

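The authors deposited log2 signals made with RMA, per the submitters' processing notes, which give no version; genome build and probe annotation version are not given in the sources used here. Per the labels' protocols, an overnight incubation in cold trypsin freed the epidermis before sorting. The table held 45141 probe sets, of which 28898 carried 1 gene symbol in the platform annotation, 551 several and 15692 none. Each of 17097 genes was represented by its single-symbol probe set with the highest mean. The main test was limma (version 3.58.1, R 4.3.3; lmFit, then eBayes) on all 8 arrays with a mean for each group and no block, with Benjamini-Hochberg adjustment over all genes and a threshold of 0.05. The fit had 5 residual degrees of freedom, and the code was tested on simulated data. Other probe sets were adjusted over 28898 probe sets tested one by one. Detection calls, scans and dates were not used, so a group under the background limit on every array is given as a bound, in which its signals were raised to the limit. The limit, the 95th percentile of the smell receptor genes on each array, assumes that these genes are silent here, and 32.9% of genes lay under it on all arrays. The number of arrays limits the precision.

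All members were named. In other pathway lists, up to 4 genes per list and comparison with the smallest p among those called could be named, and marker lists were given by counts with up to 3 examples. The members and lists were chosen with earlier results of these data known, so counts over a list are descriptions beside those over all genes. Equal replicate numbers did not pair arrays: the correlation of their deviations from the group means ran from -0.18 to 0.03. Alternatives covered the choice of probe set, scaling, a filter, the eBayes variant, array weights, the groups fitted, a replicate block and each array left out.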

Additional observations from a re-analysis of the deposited data

Results flagged for a closer look

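Msmo1, the oxidase of the sterol carbon-4 steps, stood out because its differences from control had opposite signs in expanded (-0.66) and in TPA (0.22), and the direct difference, expanded minus TPA, passed the threshold at -0.87 ± 0.18 (adjusted p = 0.0261, limma). All 3 expanded arrays were below both TPA arrays. The other Msmo1 probe set gave 0.04 for the same difference (adjusted p = 0.935, limma), with both comparisons with control negative. Which probe set follows the transcript was not tested.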

How the results depend on the processing

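Of the members' differences recomputed under settings other than leaving out an array, 806 kept direction and side of the threshold, 22 lost a call, 12 gained 1 and 21 changed sign; with 1 array left out the numbers were 680, 39, 9 and 40. Every sign change belonged to a difference that was not called in the fit reported, except that of Sc5d in TPA minus control. The causes were not tested. With the mean of all probe sets, Sc5d was 0.32, Mvk -0.018, Msmo1 -0.14 and Acaca -0.15 in TPA, Insig2 -0.047 in expanded minus control, and Mvd 0.049 in expanded minus TPA. With the probe set of largest interquartile range, Acaca was -0.37 in TPA, and Mvd 0.37 and Fads1 0.0082 in expanded minus TPA. With quantile normalization Ebp was 0.0084 in expanded, Elovl4 0.016 in TPA, and Acly -0.019 and Fads2 -0.023 in expanded minus TPA; with arrays centred on their median Elovl4 was 0.030, Acly -0.026 and Fads2 -0.016. With array weights Ebp was 0.020 in expanded, and Mvk -0.018, Lss -0.037 and Acss2 -0.0075 in TPA. The fatty acid median was 0.081 in expanded when only genes above the limit on 2 arrays were kept, and -0.13 (mean of probe sets) or -0.078 (largest interquartile range) in TPA. In expanded minus TPA, the mean of probe sets gave 0 sterol enzymes lower and 1 fatty acid enzyme called, the trended and robust eBayes gave 1 fatty acid enzyme, and the fit of only these groups gave 511 genes (1022 as reported), 1 member and 0 sterol enzymes lower.

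The replicate numbers name different mice and do not pair arrays. With a replicate block, 541 genes were called in expanded minus TPA, 6 members in expanded minus control (Mvd and Sqle lost, adjusted p = 0.0904 and 0.0502, limma) and 7 in TPA minus control (Cyp51, Tm7sf2, Ebp and Insig2 lost, Ggps1 gained), and Lss was -0.12 in TPA. In expanded minus TPA, Ebp was lost. No other call among the members changed.

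Leaving out 1 array gave ranges. In expanded minus control, 1261 to 2076 genes, 4 to 9 members, 3 to 7 sterol enzymes lower and 1 to 2 fatty acid enzymes were called. In TPA minus control, the sterol median ran from -0.35 to -0.051 and the fatty acid median from -0.095 to 0.031. In expanded minus TPA, 560 to 922 genes, 1 to 4 members and 0 to 2 sterol enzymes lower were called, and the medians ran from -0.15 to 0.11 (sterol) and -0.038 to 0.13 (fatty acid). The differences that changed sign had these ranges. Expanded minus control: Ebp -0.046 to 0.041, Dhcr7 -0.13 to 0.058, Acss2 -0.26 to 0.074, Insig2 -0.067 to 0.15, Scap -0.13 to 0.020, Lss -0.30 to 0.023. TPA minus control: Mvk -0.034 to 0.069, Insig1 -0.56 to 0.42, Acss2 -0.19 to 0.42, Fasn -0.051 to 0.073, Elovl4 -0.18 to 0.19, Hmgcs1 -0.044 to 0.25, Lss -0.33 to 0.41, Msmo1 -0.027 to 0.46, Elovl6 -0.13 to 1.69, Idi1 -0.93 to 0.28. Expanded minus TPA: Fads2 -0.056 to 0.088, Srebf2 -0.0088 to 0.20, Acly -0.087 to 0.10, Idi1 -0.74 to 0.47, Elovl6 -1.25 to 0.57, Fdft1 -0.15 to 0.017, Lss -0.56 to 0.18, Cyp51 -0.22 to 0.036, Acss2 -0.51 to 0.10, Scd1 -1.05 to 0.38, Ggps1 -0.54 to 0.011. With 1 TPA array left, its spread was assumed to be that of the other groups.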

Other observations

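Lists of genes that burn or store fatty acids were read beside all genes, of which 5.69% rose and 5.78% fell in expanded and 10.2% and 10.6% in TPA. Of 20 measured genes of fatty acid oxidation, 3 rose and 1 fell in expanded, and 4 rose and 3 fell in TPA, so that these shares rest on 1 to 4 genes. Eci1 and Hadh, enzymes of mitochondrial beta-oxidation, rose in expanded by 0.67 ± 0.08 and 0.51 ± 0.07 (adjusted p = 0.00122 and 0.00179, limma). Ppard, a nuclear receptor for fatty acids, read 10.97, 11.09 and 10.84 in control, 9.84, 10.12 and 9.84 in expanded and 9.10 and 8.94 in TPA. It fell by 1.03 ± 0.11 and 1.95 ± 0.12 (adjusted p = 0.000583 and 1.47e-05, limma), and the 3 groups did not overlap.

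Of 15 measured genes of lipid droplets and triglyceride, 1 rose and 4 fell in expanded, and 1 rose and 6 fell in TPA. Dgat1, which makes triglyceride, read 9.88, 9.84 and 9.71 in control, 8.85, 8.84 and 8.87 in expanded and 8.49 and 8.38 in TPA, with differences of -0.96 ± 0.07 and -1.37 ± 0.08 (adjusted p = 0.000119 and 1.37e-05, limma). Mgll, which breaks down monoglyceride, fell by 0.79 ± 0.12 and 0.73 ± 0.13 (adjusted p = 0.00374 and 0.0053, limma).

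3 further lipid genes, chosen after their values were seen, had the low and high arrays of Scd1 and Elovl6. Lpl, a lipase listed as an adipocyte marker, read 6.68, 7.34 and 6.82 in control, 8.21, 8.18 and 6.57 in expanded and 9.65 and 6.44 in TPA. Adipoq and Lep, defining adipocyte markers, were under the background limit on all arrays. Fa2h, which makes 2-hydroxy fatty acids, read 8.96 and 5.24 in the pair of TPA arrays, and Cers4, a ceramide synthase, read 10.21 and 8.22.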
